A study of Mus musculus with 20 samples.

Results

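Among 20 RNA libraries of cultured mouse renal tubular epithelial cells, 2 carried an inflammatory programme of intermediate strength, although both were labelled as untreated controls. They were chosen by the level of Nos2, the inducible nitric oxide synthase, in CPM (the gene's count divided by the library total and multiplied by 1000000). A level of 50 to 500 CPM made a library intermediate, a level above 1000 CPM made it high (8 libraries) and a level below 5 CPM made it low (10 libraries). The 2 intermediate libraries were the library labelled KO control replicate 4, with 199.9 CPM of Nos2, and the library labelled het control replicate 5, with 85.3 CPM. They are called here the KO-labelled and the het-labelled intermediate library. The nearest library above 500 CPM had 1223 CPM and the nearest below 50 CPM had 0.233 CPM, so no library lay close to either limit.

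The cells were primary renal tubular epithelial cells from mice of the strain B6.129-Ptprz1tm1Nmo, which carry a targeted allele of the receptor tyrosine phosphatase gene Ptprz1. They were heterozygous (het, used in the series as the Ptprz1-expressing comparator) or knockout (KO), so that every library carried at least 1 targeted allele and none was wild type. Stimulated cells received lipopolysaccharide (LPS) at 100 ng/mL and interferon-γ (IFNγ) at 10 ng/mL for 24 h, control cells were left untreated, and each of the 4 groups held 5 libraries; the labels give no age. Each library has an animal number, with animals 5 and 7 appearing in het as well as KO groups. The labels do not say how cultures were split, so the spread between libraries may be partly technical.

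Interferon-γ acts through its receptor and the JAK kinases on transcription factors that bind the gamma-activated site (GAS) of target promoters and induce antigen presentation genes and guanylate-binding proteins. The interferon-stimulated response element (ISRE) is the usual promoter motif of type I interferon responses, bound by a complex that holds STAT2 and IRF9. LPS acts through TLR4 on NF-κB and on interferon regulatory factors, and Nos2 is known as a gene that takes input from both arms.

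Treatment labels and the inflammatory genes disagreed in 4 libraries. All 8 high libraries were labelled stimulated, and 8 of the 10 low libraries were labelled control. The other 2 low libraries were labelled stimulated (KO replicate 4 and het replicate 5) and came from animals 8 and 4, the same 2 animals as the intermediate libraries. Total counts were 16214523 in the KO-labelled and 17447766 in the het-labelled intermediate library, within the range of 12899528 to 20411411 over the series. Ptprz1 was almost silent in these cells and could not check the genotype. It had 6 counts in the KO-labelled intermediate library (0.370 CPM, exact 95% Poisson interval 0.136 to 0.805) and 7 in the stimulated-labelled library of the same animal, the highest counts of the series. The het-labelled intermediate library and the other library of its animal had 0 counts (exact 95% upper limit 0.211 CPM in the former, and 0.172 CPM by the limit of 3 counts), while the other het libraries had 0 to 4 and the other KO libraries 0 or 1. These limits cover counting error only.

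A gene was counted as measured with at least 1 CPM in at least 8 libraries, which 13169 genes reached. It was taken to separate the high from the low libraries where the 2 sets did not overlap in log2(CPM + 0.5) and their means differed by at least 1. On this rule 365 genes were higher in the high libraries (2.77% of those measured) and 31 were lower (0.235%). Nos2 itself defined the sets, so these counts and every position below are descriptions without a test. Each gene was then given a position in each library, with 0 at the mean of the 10 low and 1 at the mean of the 8 high libraries on the log2 scale.

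The KO-labelled intermediate library had a median position of 0.637 over the 365 higher genes (quartiles 0.483 and 0.755), and the het-labelled one of 0.408 (quartiles 0.253 and 0.565). The same median ran from 0.853 to 1.099 in the 8 high libraries (SD 0.0850) and from −0.0456 to 0.0616 in the 10 low ones (SD 0.0343). The medians of both intermediate libraries lay between the 2 sets. Genes were kept only where the 2 sets did not overlap, so the gaps to these sets are partly built in. The 2 stimulated-labelled low libraries had 0.00435 (KO replicate 4) and −0.0456 (het replicate 5). The order of the 2 intermediate libraries was broadly the same across genes: the KO-labelled one had the higher position in 321 of 365 genes. Positions in the 2 libraries correlated across these genes at r = 0.661 and rho = 0.676; both share the same scale ends, and genes are not independent.

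**Figure D1:**
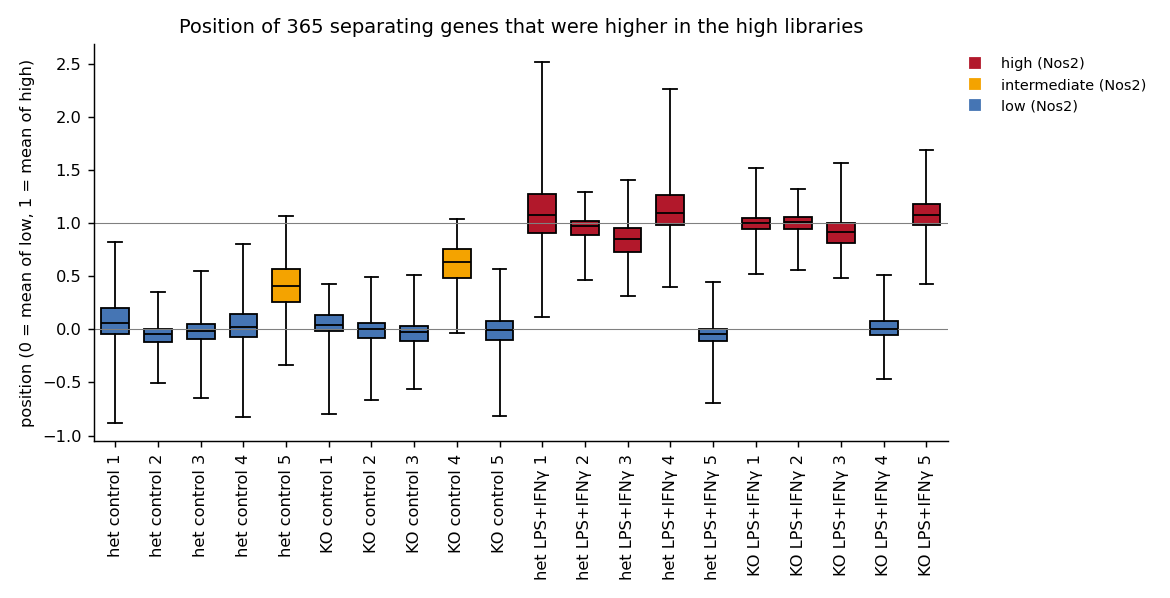
Position of the 365 higher separating genes in each of the 20 libraries (vertical axis, 0 is the mean of the low and 1 the mean of the high libraries on the log2 scale). Boxes give quartiles and medians, whiskers the extremes over genes, and colours the Nos2 class. Both intermediate libraries, at medians of 0.637 and 0.408, lie between the medians of the 10 low (at most 0.0616) and the 8 high libraries (at least 0.853).

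The intermediate state was not a uniform step on the log2 scale. A position of at least 0.8 in both intermediate libraries was called near full, 0.35 to 0.65 in both midway, and at most 0.2 in both little. Of the 365 higher genes, 17 were near full (4.66%), 67 midway (18.4%), 15 little (4.11%) and 266 fitted none of these in both libraries. Taken singly, the KO-labelled library had 61 genes at 0.8 or above and 22 at 0.2 or below, and the het-labelled library had 19 and 59. Against the spread of the reference libraries, 178 genes lay between the low and the high range in both intermediate libraries, 32 lay inside the high range in both and 42 inside the low range in both.

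**Figure D2:**
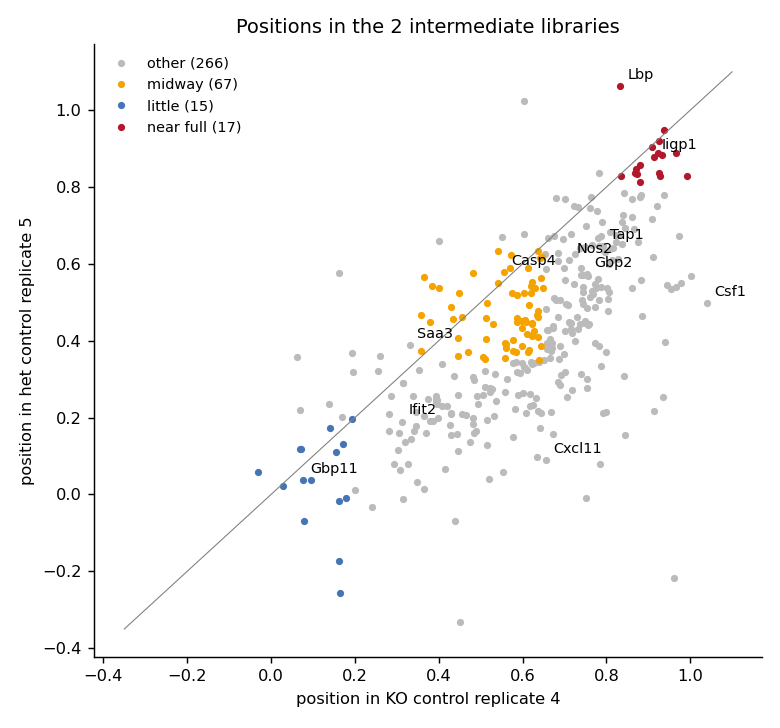
Position of each of the 365 higher genes in the KO-labelled (horizontal) and the het-labelled (vertical) intermediate library, both on the 0 to 1 log2 scale. Most points, 321 of 365, lie below the line of equal positions; the 17 near full genes sit in the upper right corner and the 15 genes with little induction in the lower left.

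The near full genes held several immunity-related GTPases and MHC class I genes. They included the GTPases Tgtp1, Tgtp2 and Iigp1, the class I heavy chains H2-K1, H2-D1, H2-Q4, H2-Q6 and H2-Q7 with their light chain B2m, the LPS-binding protein Lbp, and Gm4841, F830016B08Rik, BC023105, Lrig1, Akr1b3 and Rassf10. The Tgtp genes, like the H2-Q genes, resemble each other closely enough for reads to be split between copies, which makes the value of any 1 of them uncertain. At the other end stood Hpse (heparanase), Trex1 (a DNA exonuclease), Gbp11 (a guanylate-binding protein), Slamf8, Calhm6, Bnip3, Slc6a19, Slco3a1, Kctd12, Thsd7b, Cep85, Rmdn3, Enpp4, Whamm and 2310043P16Rik. Of these, 9 separated by less than 2 on the log2 scale, and Gbp11, with 2 and 1 counts, was hardly detected.

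The proximal promoters of 5 of these genes and of genes described below are shown, to put the letters of the 2 interferon-type motifs beside the positions. They were chosen after the values were seen. Tgtp1 and B2m were near full, Gbp2 is a rule marker, and Ifit2 and Samhd1 were among the lowest of the abundant, named genes. Each run is the 250 bases before the start site in RefSeq (GRCm38.p6), 5′ to 3′ on the gene's own strand, with motif matches in capitals. GAS was searched as TTCNNNGAA and ISRE as GAAA, any 2 bases and GAAA, on both strands. The windows are chr11:48992247-48992496 (minus strand) for Tgtp1, chr2:122147437-122147686 (plus) for B2m, chr3:142620413-142620662 (plus) for Gbp2, chr19:34550444-34550693 (plus) for Ifit2 and chr2:157135097-157135346 (minus) for Samhd1.
Tgtp1: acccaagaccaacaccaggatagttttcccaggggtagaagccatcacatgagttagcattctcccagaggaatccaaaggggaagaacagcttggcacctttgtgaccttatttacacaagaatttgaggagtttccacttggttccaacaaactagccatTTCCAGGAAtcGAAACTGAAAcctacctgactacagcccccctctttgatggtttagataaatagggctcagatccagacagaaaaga
B2m: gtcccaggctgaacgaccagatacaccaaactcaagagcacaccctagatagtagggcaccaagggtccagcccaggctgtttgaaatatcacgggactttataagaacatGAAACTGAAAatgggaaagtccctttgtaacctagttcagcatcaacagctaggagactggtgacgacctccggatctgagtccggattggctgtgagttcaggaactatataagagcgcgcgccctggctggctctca
Gbp2: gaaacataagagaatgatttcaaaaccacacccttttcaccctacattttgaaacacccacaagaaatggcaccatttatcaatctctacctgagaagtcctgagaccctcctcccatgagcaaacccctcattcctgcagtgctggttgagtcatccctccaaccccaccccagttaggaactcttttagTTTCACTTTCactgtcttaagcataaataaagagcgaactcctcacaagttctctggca
Ifit2: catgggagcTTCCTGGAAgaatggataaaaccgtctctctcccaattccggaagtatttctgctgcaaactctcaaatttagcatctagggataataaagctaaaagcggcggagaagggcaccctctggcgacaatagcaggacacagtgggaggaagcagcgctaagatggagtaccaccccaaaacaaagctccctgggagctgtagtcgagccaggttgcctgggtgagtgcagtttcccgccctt
Samhd1: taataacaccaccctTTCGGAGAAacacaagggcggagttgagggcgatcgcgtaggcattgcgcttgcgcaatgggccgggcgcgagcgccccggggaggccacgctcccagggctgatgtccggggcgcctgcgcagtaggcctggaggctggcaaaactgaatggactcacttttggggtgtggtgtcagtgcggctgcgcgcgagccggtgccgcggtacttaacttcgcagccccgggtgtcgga
Tgtp1 had a GAS match 88 bases before its start and an ISRE match 77 bases before it, which did not overlap. B2m had an ISRE match at 139 and Gbp2 one at 59, on the opposite strand. Ifit2 had a GAS match at 241 at the first of its 2 listed starts and no match at the second, and Samhd1 one at 235. A match describes letters only. A motif outside these windows, or with other letters, would be missed, so no match does not mean that a gene lacks the element. A gene was counted where any of its listed starts held a match. At least 1 of the 2 motifs occurred in 11.1% of the 27025 genes with a listed promoter. It occurred in 32.4% of the 259 higher separating genes found among them. By class it was 3 of 9 near full genes, 17 of 47 midway genes and 2 of 12 with little induction. In these small sets the near full and the midway genes held the motifs at about the share of all higher genes (33.3% and 36.2%), and no test was made.

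Of the genes of interferon signalling, Irf9 and Stat2, which act together in the ISRE-binding complex, stood high. Irf9 had 72.3 CPM in the KO-labelled and 63.9 CPM in the het-labelled intermediate library, against 68.1, 96.9 and 137 CPM (lowest, median, highest) in the high and 16.5, 19.98 and 38.5 CPM in the low libraries. The KO-labelled value lay inside the high range and the het-labelled one just below it, at positions of 0.789 and 0.708. Stat2 was at 0.757 and 0.568. Irf1, an interferon-induced transcription factor, was lower at 0.690 and 0.507, with 263 and 143 CPM against 517 to 1328 CPM in the high libraries. Socs1, the feedback inhibitor of JAK signalling, stood at 0.436 and 0.310, and Irf2, which opposes Irf1, at 0.387 and 0.193. Of 19 measured genes of interferon receptors, JAK-STAT and IRF factors 9 separated, with medians of 0.690 and 0.459; Ifngr1, Ifngr2, Jak1 and Jak2 did not separate.

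On the LPS side, Lbp, a secreted protein that carries LPS to its receptor complex, was the only gene of the near full set whose het-labelled value exceeded the mean of the high libraries. It had 124.6 CPM in the KO-labelled and 271 CPM in the het-labelled intermediate library. The high libraries had 68.8, 236 and 513 CPM and the low libraries 2.04, 7.61 and 24.2 CPM, so both values lay inside the high range. The positions were 0.833 and 1.06. Tlr2, a receptor for bacterial lipoproteins, was midway at 0.599 and 0.451. Tlr3, a receptor for double-stranded RNA, was at 0.632 and 0.251. The other 11 of 14 measured genes of this list, among them Tlr4, Cd14 and Myd88, did not separate.

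The NF-κB list gave 6 separating genes of 16, with medians of 0.794 and 0.649. Tnfaip3 and Zc3h12a, a deubiquitinase and an RNase that restrain inflammatory signalling, were at 0.974 and 0.938 in the KO-labelled library and at 0.672 and 0.780 in the het-labelled one. Tnfaip3 had 229.7 and 128.9 CPM, inside the range of 113.5 to 524.9 CPM of the high libraries. Nfkbia, the inhibitor of NF-κB, was nearly equal in both libraries, at 0.675 and 0.673. Tnfaip2 stood apart at 0.345 and 0.215, with 111.2 and 90.7 CPM, inside the low range of 33.9 to 152 CPM. Birc3, an inhibitor of apoptosis, differed most between the 2 libraries in this list, at 0.913 and 0.219. No gene coding for an NF-κB subunit (Nfkb1, Nfkb2, Rel, Rela, Relb) separated.

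All 17 measured genes of the guanylate-binding proteins and immunity-related GTPases, which attack vacuoles of intracellular pathogens, separated, with medians of 0.809 and 0.658. Iigp1 had 1743 and 1359 CPM against 2146, 3548 and 4030 CPM in the high and 0.173, 2.00 and 4.599 CPM in the low libraries. Both values were below every high library, yet at positions of 0.914 and 0.879. Gbp10 has nearly the same log2 range as Iigp1 (10.68 and 10.35) and was far lower, with 77.2 and 13.3 CPM against 417, 941 and 1632 CPM in the high libraries and at most 0.465 CPM in the low ones. Its positions were 0.673 and 0.439. All its low values were below the pseudocount of 0.5, so its range and positions depend on that setting more than those of Iigp1. Gbp4, with a range of 10.01, was at 0.757 and 0.441, and Gbp5 was midway at 0.586 and 0.448. The rule marker Gbp2 had 1472 and 496 CPM, against 3518, 6549 and 11050 CPM in the high and 10.1, 15.6 and 28.7 CPM in the low libraries, at positions of 0.755 and 0.574. Gbp11 had 0.123 CPM (95% interval 0.0149 to 0.446) and 0.0573 CPM (0.00145 to 0.319), against 1.96, 9.59 and 28.8 CPM in the high libraries, and was listed at 0 in all 10 low ones. Its counts lay at or below the limit of 3 counts, so a level above 0 could not be resolved at this depth; the next lowest member, Gbp8, was at 0.684 and 0.294.

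**Figure D3:**
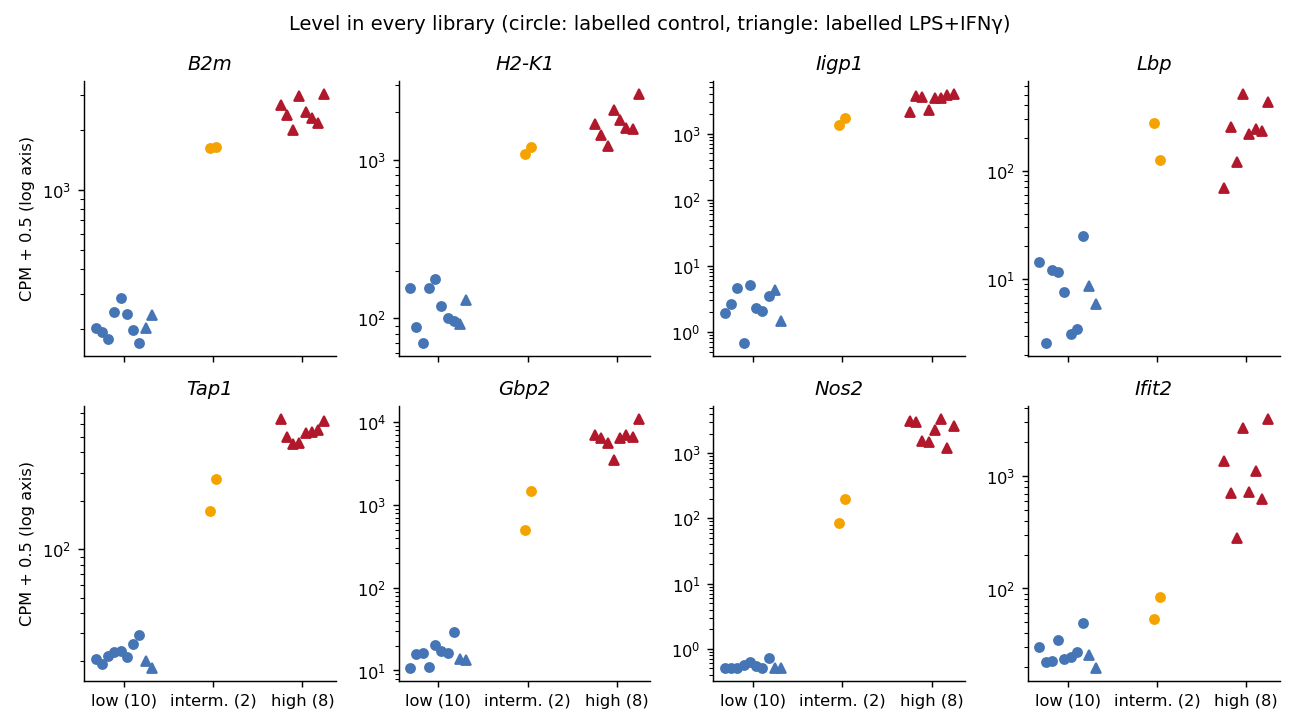
Level of selected genes in the 20 libraries, as CPM + 0.5 on a log axis, by low, intermediate and high library, 1 point for each library. Lbp in the 2 intermediate libraries sits inside the high range, Gbp2 and Nos2 sit between the sets, and Ifit2 (83.3 and 53.2 CPM) sits just above the low libraries.

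Among the MHC class I genes, the 6 near full members were 5 heavy chains and the light chain. The 3 midway members were the heavy chains H2-T22, H2-M3 and H2-T23. H2-K1 had 1211 and 1088 CPM, against 1234, 1637 and 2631 CPM in the high and 69.0, 109 and 176 CPM in the low libraries (positions 0.873 and 0.833). H2-D1 had 1105 and 1042 CPM at 0.880 and 0.858. B2m was almost the same in both, at 1646 and 1625 CPM, against 1995, 2412 and 3043 CPM in the high and 168, 202 and 285 CPM in the low libraries (0.835 and 0.830). H2-K1 and B2m were thus below every high library in both intermediate libraries, and H2-D1 in the het-labelled one. Nlrc5, the transactivator of class I genes, was at 0.882 and 0.778. The immunoproteasome subunits Psmb8 and Psmb9 were at 0.866 and 0.837 in the KO-labelled and at 0.692 and 0.710 in the het-labelled library. Tap1, a subunit of the peptide transporter and the third marker of the rule, had 274 and 173 CPM, against 454.0, 533.6 and 649.6 CPM in the high and 17.6, 20.99 and 28.7 CPM in the low libraries (0.791 and 0.647). H2-T23, the lowest of the list in the het-labelled library, was at 0.576 and 0.373. Over the list, 20 of 22 measured genes separated, 6 were near full, and the medians were 0.821 and 0.652. The chaperones Calr and Pdia3 did not separate.

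The MHC class II list had 7 separating genes of 8 and medians of 0.715 and 0.6499. Cd74, the invariant chain, had 24.6 and 16.1 CPM, inside the high range of 8.81 to 222.5 CPM, at 0.881 and 0.775. Ciita, the transactivator of class II genes, was at 0.675 and 0.511, and H2-DMa, a subunit of the peptide exchange factor, at 0.306 and 0.161.

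Of the 4 lists with at least 17 separating genes, the type I interferon-stimulated genes had the lowest het-labelled median. In the KO-labelled library the cytokine list was lower, at 0.656. Of 32 measured type I genes, 31 separated and none was near full. Their medians were 0.701 and 0.444, above those of all 365 higher genes (0.637 and 0.408). In log2 units their median distance below the high mean was 1.38 and 2.81, against 1.51 and 2.77 for the GTPases, whose median range was wider (8.56 against 4.95). The highest was Rtp4 at 0.845 and 0.694, followed by Bst2, a membrane tether of enveloped viruses, at 0.810 and 0.639. The lowest in the KO-labelled library was Ifit2, an RNA-binding antiviral protein, and the lowest in the het-labelled one was Isg20, an RNA exonuclease, at 0.0977. Ifit2 had 83.3 and 53.2 CPM, against 279, 920 and 3246 CPM in the high and 19.0, 24.5 and 48.7 CPM in the low libraries. Both values lay just above the low range, at positions of 0.312 and 0.189. The GTPase Irgm2, with nearly the same log2 range as Ifit2 (5.26 and 5.25), was at 0.842 and 0.786. Ifit3b was at 0.428 and 0.180 and Ifit3 at 0.521 and 0.276, while Ifit1 was at 0.701 and 0.558; Ifit3 and Ifit3b can share reads. Oas3, a sensor of double-stranded RNA, differed between the libraries, at 0.719 and 0.273.

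**Figure D4:**
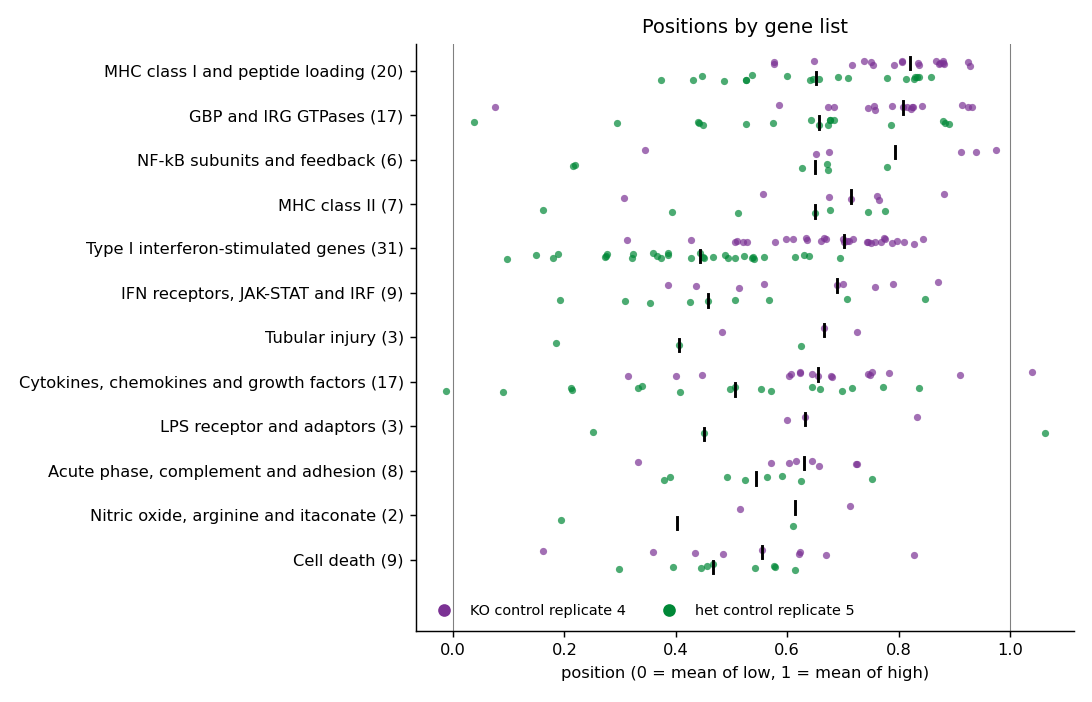
Positions of the separating members of each gene list (horizontal axis, 0 low and 1 high on the log2 scale) in the KO-labelled and the het-labelled intermediate library; black bars mark medians and the number of separating members stands beside each name. Guanylate-binding and immunity-related GTPases (medians 0.809 and 0.658) and MHC class I genes (0.821 and 0.652) lie to the right of the type I interferon-stimulated genes (0.701 and 0.444); the GTPases have wider ranges, and their median distances below the high mean (1.51 and 2.77) are close to those of the type I genes (1.38 and 2.81).

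Ligands were mixed. Cxcl16, a chemokine, was at 0.910 and 0.716. Cxcl5, a neutrophil chemokine, had 43.3 and 56.5 CPM, inside the range of 23.4 to 1552 CPM of the high libraries, and was higher in the het-labelled library (0.784 and 0.837). Cxcl10, an interferon-induced chemokine, had 216 and 70.7 CPM, against 946, 1919 and 2488 CPM in the high and 0.805, 1.64 and 9.44 CPM in the low libraries (0.679 and 0.506). Its relative Cxcl11 was at 0.656 and 0.0902, and Il15, a lymphocyte growth factor, at 0.314 and −0.0122. Csf1, the macrophage growth factor, had 547 CPM in the KO-labelled and 279 CPM in the het-labelled library. The high libraries had 344, 500 and 877 CPM and the low libraries 111, 138 and 233 CPM, so the KO-labelled value lay inside the high range (1.04) and the het-labelled one between the sets (0.498). Il34, the other ligand of the same receptor, did not separate. The list had 17 separating genes of 20 and medians of 0.656 and 0.506.

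Effectors of the acute phase and of cell death followed, with medians of 0.630 and 0.544 over 8 separating genes and of 0.555 and 0.468 over 9. Complement C3 had 466.1 and 525.2 CPM, against 668 to 3119 CPM in the high libraries, at 0.724 and 0.752. C1s1, a complement protease, was midway at 0.571 and 0.590. Saa3, an acute phase protein, was lower, with 1.30 and 1.72 CPM against 1.78, 17.6 and 198 CPM in the high libraries (0.332 and 0.389). Of 9 separating cell death genes 5 were midway. Among them Casp4, which senses intracellular LPS, had 18.4 and 19.5 CPM against 38.0 to 80.3 CPM in the high and 2.71 to 6.90 CPM in the low libraries (0.555 and 0.578). Zbp1, a nucleic acid sensor of cell death, was highest in that list at 0.828 and 0.614. On the list of nitric oxide, arginine and itaconate 2 genes separated. Acod1, which makes itaconate, had 3.88 and 0.631 CPM against 14.6 to 134 CPM in the high libraries, and was listed at 0 in all low ones (0.515 and 0.193). Nos2, used by the rule, was at 0.712 and 0.610. Cd274, the ligand of PD-1, was midway at 0.636 and 0.410.

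Further named genes lay outside these roles. Samhd1, a dNTP hydrolase with antiviral action, had 178 and 121 CPM, against 324, 619 and 804 CPM in the high and 45.0, 87.7 and 122 CPM in the low libraries (0.399 and 0.2003). The het-labelled value was inside the low range. Pfkfb3, a regulator of glycolysis, was at 0.282 and 0.166, Clic5 at 0.303 and 0.115, Cyp4v3 at 0.283 and 0.209 and Clec2d at 0.366 and 0.0139. Nod1, a sensor of bacterial peptidoglycan, was midway at 0.358 and 0.372, the latter close to the median of the het-labelled library. Xdh, xanthine dehydrogenase, and Trim21, an antibody receptor in the cytosol, were close to the centre, at 0.530 and 0.443 and at 0.586 and 0.520.

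Most of the 31 genes lower in the high libraries had short ranges, and 3 differed by at least 2 on the log2 scale. Their median position was 0.600 in the KO-labelled and 0.348 in the het-labelled intermediate library, against 0.826 to 1.33 in the high and −0.137 to 0.131 in the low libraries. None was near full in both, 6 were midway (Ncald, Clmn, Nat8l, Camk2n1, Map3k7cl and Acly; 19.4%) and none was little in both. L1cam, a cell adhesion molecule, had 17.5 and 13.3 CPM, against 9.63, 11.5 and 20.3 CPM in the high and 20.4, 32.0 and 56.4 CPM in the low libraries (0.690 and 0.948). Dnmt3a, a DNA methyltransferase, was at 0.524 and −0.00744, and Celsr2, an adhesion receptor, at 0.458 and 0.00645. In the het-labelled library these 2 genes lay at the mean of the low libraries.

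Position depended on the scale. In linear CPM, the median higher gene reached 33.4% of the way from the low to the high mean in the KO-labelled and 14.9% in the het-labelled library. Nos2 reached 8.55% and 3.65%, Gbp2 21.8% and 7.18%, Tap1 48.9% and 29.2%, H2-K1 66.9% and 59.3% and Ifit2 4.24% and 1.95%. Genes of wide range stood high on the log2 scale and low on the linear one. The 112 genes with a log2 range of 1 to 2 had median positions of 0.510 and 0.290 and linear medians of 35.9% and 16.3%, while the 18 genes with a range above 8 had 0.768 and 0.612 and linear medians of 19.6% and 7.88%. On the log2 scale the median gene was short of the high mean by 1.04 in the KO-labelled and 1.496 in the het-labelled library.

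**Figure D5:**
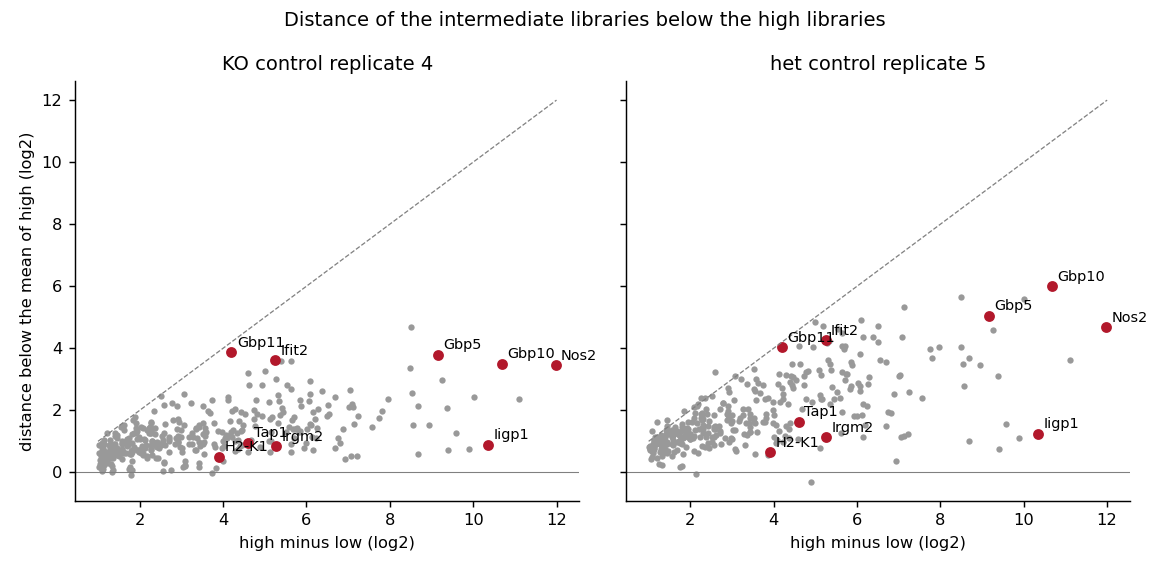
Distance of each higher gene below the mean of the high libraries (log2 units), by the gene's own log2 range between low and high libraries, for the KO-labelled and the het-labelled intermediate library (1 point for each gene; the dashed line marks a position of 0 and the grey line a position of 1). Iigp1, at positions of 0.914 and 0.879, lies close to the grey line, and Gbp10, of nearly the same range, far above it at 0.673 and 0.439.

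Few genes set the intermediate libraries apart from both ends. Of 13169 measured genes, 30 were above all 18 other libraries in both intermediate libraries (0.228%) and 18 were below them (0.137%). Any 2 libraries would hold the highest or lowest places in some genes by chance. The share for other pairs is not given here, so these counts are a description. The gaps were small, at most 0.14 (Pik3c2b, a lipid kinase) and 0.24 (Gstm7, a glutathione transferase) on the log2 scale, and 0 genes passed 1. Il1rn, the interleukin-1 receptor antagonist, had 58.6 and 89.7 CPM, against 3.72 to 55.7 CPM in the 18 others. Csf1r, the receptor of Csf1, did not separate; it had 3.76 and 3.10 CPM, below the range of 5.19 to 45.4 CPM of the low libraries and inside that of 0.381 to 19.9 CPM of the high ones.

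Markers of cell types were checked in the intermediate libraries. The summed tubular epithelial markers (Epcam, Cdh1, Krt8, Krt18, Pax8 and Cdh16) gave 1151 and 559 CPM, within 265 to 1403 CPM in the high and 224 to 1783 CPM in the low libraries. The 10 proximal tubule markers summed to 203 and 212 CPM (126 to 383 CPM in the high, 161 to 679 CPM in the low libraries). Of these, Slc34a1, Slc5a2, Slc22a6 and Miox were at 0 in both. The 7 distal markers summed to 2.96 and 2.75 CPM (0.677 to 3.83 CPM in the high, 1.01 to 3.72 CPM in the low libraries). Among them Umod, Slc12a3 and Aqp2 were at 0 in both. The 7 fibroblast markers summed to 5155 and 4804 CPM, with a range of 31.5 to 12420 CPM in the high and 58.8 to 15170 CPM in the low libraries. The 12 leukocyte markers summed to 14.6 and 6.02 CPM (4.69 to 237 CPM in the high, 12.1 to 398 CPM in the low libraries), and Cd3e and Cd79a were at 0 in both. The het-labelled sum was thus under every low library. No gene of these lists separated the high from the low libraries. In RNA from whole cultures, fewer responding cells and a weaker response in each cell cannot be told apart, and the part of cell makeup in the positions was not tested.

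Stimulated was tested against control over both genotypes, with the intermediate libraries kept in the control group as labelled. edgeR's quasi-likelihood test called 719 of 14568 genes higher (4.94%) and 85 lower (0.583%) at a Benjamini-Hochberg adjusted p under 0.05. With the animal as a block, 0 genes were called in either direction (4706 had an unadjusted p under 0.05, and the smallest adjusted p was 0.0757), while DESeq2 without the block called 1040 and 270. Without the 2 intermediate libraries the counts were 940 and 222, and without all 4 libraries of animals 4 and 8 they were 1518 and 751.

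The share of genes called differed between the position classes. The classes were set by the levels in the 2 intermediate libraries, which this test kept in the control group. A near full gene thus had 2 of 10 controls close to the level of the high libraries. Differences in share between the classes were therefore partly built in. The labelled groups also share most libraries with the Nos2 sets, so the shares are a description. Of the 17 near full genes 2 were called (11.8%), Lrig1 and B2m, against 66 of 67 midway genes (98.5%), all 15 genes with little induction and 313 of all 365 higher genes (85.8%). B2m differed by 2.11 ± 0.60 (log2, SE, n = 10 and 10; edgeR adjusted p = 0.0459), and H2-K1 by a similar 2.20 ± 0.68 (adjusted p = 0.0650) without a call. Tgtp1 had 2.84 ± 1.39 (adjusted p = 0.269) and Nos2 itself 6.23 ± 1.97 (adjusted p = 0.0712). Ifit2 had 4.96 ± 0.75 (adjusted p = 0.00780) and Samhd1 2.41 ± 0.38 (adjusted p = 0.00780), both called. Among the lists, 31 of 33 type I interferon-stimulated genes tested were called higher, 12 of 22 MHC class I genes and 10 of 17 of the GTPases. So were 14 of 19 interferon receptor, JAK-STAT and IRF genes and 8 of 17 NF-κB genes. The counts were 17 of 25 for cytokine and chemokine genes and 11 of 16 for cell death genes. None of these was called lower, and 4.94% of all 14568 genes were called higher. The list counts depend on the positions too. In the KO-labelled intermediate library, kept as a control, 12 of 20 separating class I genes stood at 0.8 or above. There, 9 of 17 GTPases and 3 of 31 type I genes did so. In the het-labelled one the numbers were 6, 3 and 0.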

How the data were processed

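RNA was sequenced in 20 libraries, 5 in each labelled group. The deposited table holds expected counts per gene from the authors' quantification, as whole numbers; per the submitters' processing notes Salmon 1.10.2, FastQC 0.11.9, DESeq2 1.45.3 and R 4.4.1 were used with GRCm39. The step from transcripts to genes is not stated in the labels. The counts were taken as deposited. Of 55891 gene IDs 51425 (92.0%, with 98.8% of counts) received a symbol from GENCODE M21, used for names only.

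CPM used the library totals (12899528 to 20411411 counts) and a pseudocount of 0.5 before log2. The members, the gene lists and the rule for named genes were chosen with earlier results of these data known. Among higher genes that differ by 2 or more on the log2 scale, average 4 or more in log2 CPM over the high libraries and carry no predicted-gene symbol, the text takes its genes from the 10 highest by the lower of the 2 positions, the 10 lowest by the higher of the 2 and the 6 nearest 0.5. It adds lower genes that average 3 or more in log2 CPM over the low libraries (the 5 highest and 5 lowest), up to 2 of the highest and lowest of each list, and fixed genes; other named genes were chosen after their values were seen, and 1 gene is not reported here. Promoters came from RefSeq (GRCm38.p6).

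The labelled test used edgeR 4.0.16 in R 4.3.3 (TMM scaling, filterByExpr, quasi-likelihood fit of genotype and treatment over 20 libraries) and was tested on simulated data. Deviations from the group means correlated between the 2 libraries of an animal at −0.298 to 0.623, above 0.1 in 8 of 10 animals; the animal numbers come from the labels. Alternatives were other pseudocounts, scalings, filters, scale ends, DESeq2 1.42.0, the animal block, and leaving out each library.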

Additional observations from a re-analysis of the deposited data

Results flagged for a closer look

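In each labelled group of 5 libraries, 1 library lay far from the other 4. The ratio of its gap to the whole range of the group is given below. A ratio above 0.710 is reached by chance in about 1 in 20 groups of independent values. That rate does not apply to these ratios: Nos2 chose the libraries, and the separating genes were chosen so that the low libraries stand apart from the high ones, so the ratios are descriptions.

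For the median position of the higher genes, the ratio was 0.904 for the KO-labelled intermediate library within its control group and 0.765 for the het-labelled one. It was 0.852 for KO stimulated replicate 4 and 0.785 for het stimulated replicate 5, the stimulated-labelled libraries of the same animals. For the lower genes, the KO-labelled intermediate library had 0.796 and KO stimulated replicate 4 had 0.763.

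For Nos2 the ratios in the KO stimulated, KO control, het stimulated and het control groups were 0.884, 0.936, 0.915 and 0.979. For Gbp2 they were 0.919, 0.871, 0.891 and 0.888, and for Tap1 0.953, 0.879, 0.897 and 0.919. In all of these the library apart was KO replicate 4 or het replicate 5.

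Of 75 named genes that were measured, 39 had a library this far apart in the KO stimulated group (KO stimulated replicate 4 in 39), 34 in the KO control group (the KO-labelled intermediate library in 33), 23 in the het stimulated group (het stimulated replicate 5 in 23) and 22 in the het control group (the het-labelled intermediate library in 21). The named genes were chosen for their positions in these libraries, so the counts are descriptions.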

How the results depend on the processing

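Each intermediate library is 1 sample without a replicate, and the genes measured at few counts limit the low end of the scale. Linear CPM changed most: 1 higher gene was near full, 28 midway and 95 little, with medians of 0.334 and 0.149 (KO-labelled, then het-labelled); of the lower genes 4 were near full and 2 midway, with medians of 0.773 and 0.521. Nos2 was then at 0.0855 and 0.0365, Gbp2 at 0.218 and 0.0718 and Tap1 at 0.489 and 0.292. With a difference of means of at least 2, 3 lower genes separated, 6 higher genes were little and 1 lower gene was midway. With the low library of the same animal as the 0 end, 9 were little. Without a filter, and with only the 8 control-labelled low libraries as the 0 end, 1 lower gene was near full. With a pseudocount of 0.1, Nos2 was at 0.666 in the het-labelled library.

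Leaving out each reference library in turn gave 365 to 390 higher and 30 to 49 lower separating genes (49 without KO stimulated replicate 3 and 47 without het stimulated replicate 4). It gave 17 to 22 near full, 61 to 75 midway and 13 to 22 little higher genes, and medians of 0.613 to 0.644 and 0.394 to 0.424. Of the lower genes 0 to 1 were near full, 4 to 10 midway and 0 to 3 little, with medians of 0.562 to 0.697 and 0.214 to 0.393. Positions in the KO-labelled and then the het-labelled library ran from 0.705 to 0.717 and 0.604 to 0.614 for Nos2, 0.744 to 0.765 and 0.566 to 0.582 for Gbp2, and 0.785 to 0.798 and 0.642 to 0.652 for Tap1.

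In the labelled test, the animal as a replicate block left 0 higher and 0 lower genes, no filter left 500 and 39, DESeq2 gave 1040 and 270, leaving out the 2 intermediate libraries gave 940 and 222, and leaving out all 4 libraries of animals 4 and 8, an alternative chosen after seeing the data, gave 1518 and 751. Leaving out 1 library gave 455 to 1102 higher and 22 to 411 lower genes. The higher count moved by over 1.5 times without KO control replicates 1, 2 and 3, het control replicates 2 and 3, KO stimulated replicates 2 and 5 (455 to 467 in all of these) and het stimulated replicate 5 (1102); the lower count did so when any library other than het control replicate 5 (119) was left out. The cause was not tested.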
